A study of Mus musculus with 18 samples.

Results

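Single muscle fibers treated with KN93, an inhibitor of the calcium/calmodulin-dependent kinase (CaMK) pathway, were compared with and without electrical stimulation in the pattern of the slow fiber type. The experiment comprised 6 of the 18 samples of the series, chosen by their titles. These were 3 of stimulated fibers with KN93 and 3 of unstimulated fibers with KN93, numbered as experiments 1 to 3. The 2 scans filed as stimulated experiments 1 and 2 show a single array, called the double scan here, with the spot grid shifted by 1 column. The grid was moved back and the scans averaged, which left 5 of 17 arrays, 2 stimulated and 3 unstimulated. The custom array carried 22 features of 6 spots each. Its gene column was empty, so the features are numbered from 1 to 22 in the line order of the deposited table, and nothing is known here of the gene each one reads.

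Calcium that enters the cytoplasm with each contraction binds calmodulin, and the complex activates the CaMK enzymes. In skeletal muscle the tonic activity of slow motor nerves keeps calcium raised for long periods, and CaMK, together with the phosphatase calcineurin, is known to carry this signal to transcription factors such as MEF2 that favour slow-fiber genes. KN93 blocks the activation of CaMK by calmodulin. KN92 is closely related to KN93, lacks the hydroxyethyl group on its sulfonamide nitrogen and serves as its inactive control, while KN62 is an inhibitor built on an isoquinolinesulfonamide.

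Both groups consisted of fibers dissociated from the flexor digitorum brevis, a short muscle of the foot, of CD-1 mice aged 4 to 5 weeks. Fibers of both groups received KN93 and were kept to day 3 of culture in 35 mm dishes with 10% serum and gentamicin at 50 ug/ml, at 37 °C under 5% CO2. RNA of over 100 fibers per sample was amplified and carried Cy3, against a reference sample in Cy5, on every array. The sources used here give neither the KN93 dose nor the pulse settings nor the number of mice behind a sample. The series describes its experiments as independent. The p-values below measure the spread between arrays within groups, taken over all 17 arrays of the series unless stated otherwise. The defining markers of fast or slow fibers could not be looked up on features without names.

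The question was which features stimulation changed while the CaMK pathway was inhibited. No feature passed the threshold, an adjusted p of 0.05 over 22 features by limma (0 called, 0% of those tested), and 2 had an unadjusted p under 0.05. Those were features 9 and 7, both lower in stimulated fibers with KN93. In RNA pooled from many fibers, a change in every fiber and a change in the share of some fibers cannot be told apart. The stimulation difference of the log2 ratio of Cy3 to Cy5 was above 0 for 13 features and below 0 for 9, with a median of 0.05 over all 22. Its 95% interval, with the spread of each feature taken over all 17 arrays, had a median half-width of 0.48. Of the 11 features above background on all 5 arrays, 9 had an interval between -1 and 1, among them feature 1, whose spots were partly saturated. Features 7 and 8 were the others. Fitted on the 5 KN93 arrays alone, features 7 and 9 each had an adjusted p of 0.334 by limma, and 0 features passed.

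**Figure D1:**
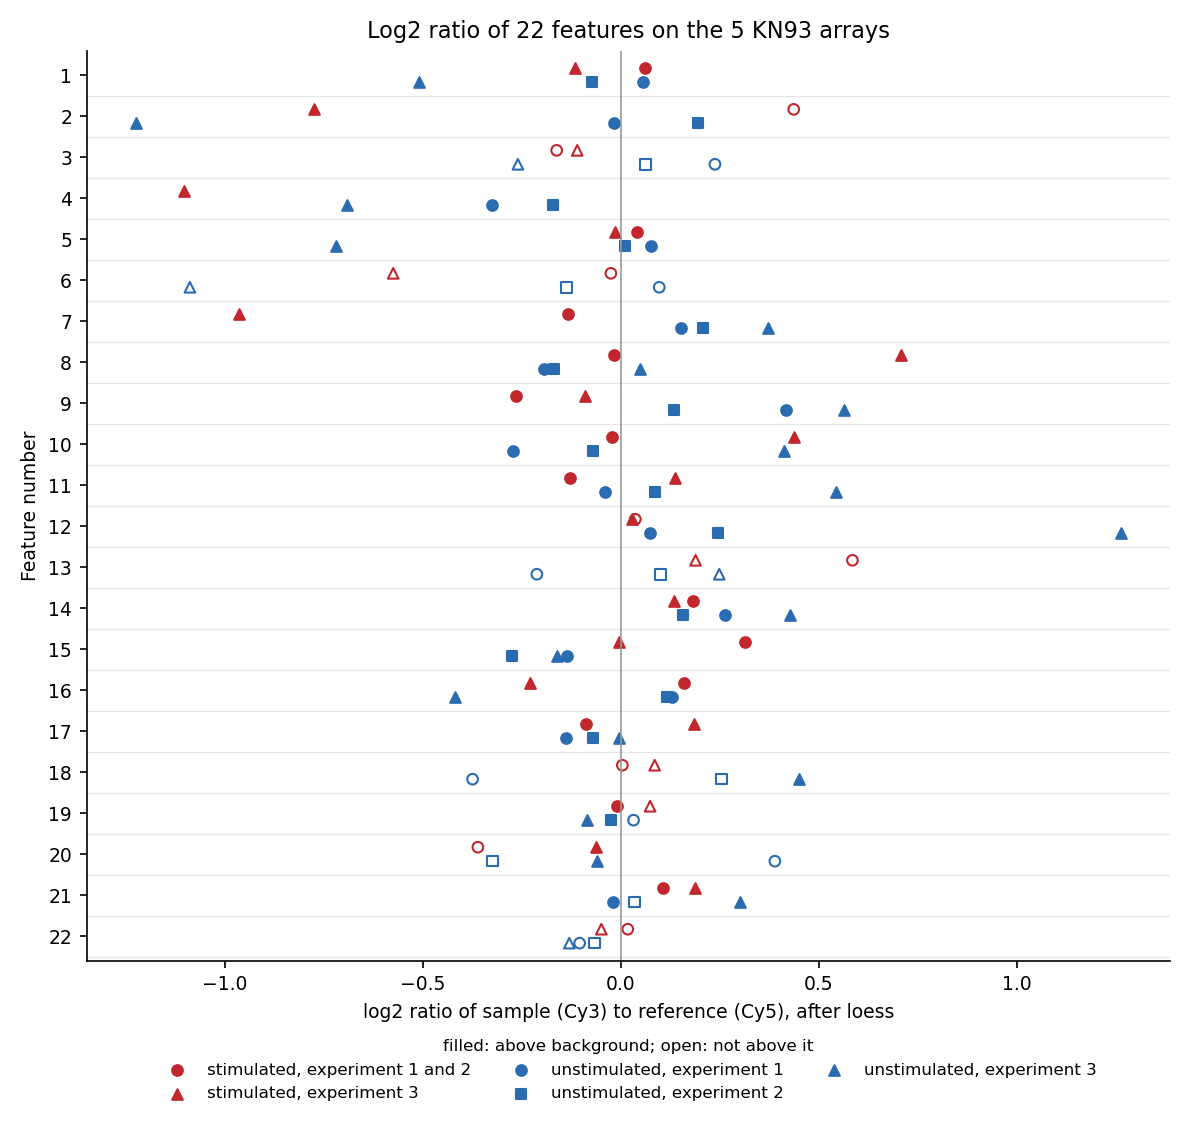
Log2 ratio of sample to reference (x axis) for each of the 22 features (y axis) on the 2 stimulated arrays (red, upper row of a feature) and the 3 unstimulated arrays (blue, lower row) with KN93. Filled points are features above background on that array and open points are not. The red points of features 7, 9 and 12 lie left of all blue points, and those of features 15 and 22 lie right of them.

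Brightness limited which features could be read. The median Cy3 signal per array was 1281 units on 1 scan of the double scan and 1414 on the stimulated array of experiment 3, against 1829, 1273 and 2708 on the unstimulated arrays. A feature counted as above background where over 50% of its spots had a Cy3 median above the local background, and 11 features met this on all 5 arrays. They were features 1, 5, 7, 8, 9, 10, 11, 14, 15, 16 and 17. Feature 4 was above background on each of the 4 arrays that measured it, since the moved grid leaves it without a value on the stimulated array of experiments 1 and 2.

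The groups did not overlap in 5 of the 21 features measured on both stimulated arrays. Stimulated values were all lower for features 7, 9 and 12 (3 features, 14.3%) and all higher for features 15 and 22 (2 features, 9.52%). The same counts were 2 lower (9.09%) and 2 higher (9.09%) of 22 with KN92 and 0 and 0 (0%) with KN62, with 3 arrays a side. The counts with KN93 are not directly comparable with those, since 2 arrays against 3 part more readily than 3 against 3.

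Among the 4 features with the smallest unadjusted p, feature 9 stood first. Its log2 ratio was -0.27 on the stimulated array of experiments 1 and 2 and -0.09 on that of experiment 3, against 0.42, 0.14 and 0.56 on the unstimulated arrays of experiments 1, 2 and 3. Both stimulated arrays lay below 0 and all 3 unstimulated arrays above it. The group means were -0.18 ± 0.12 (SD, n = 2) in stimulated and 0.37 ± 0.22 (SD, n = 3) in unstimulated fibers. The difference was -0.55 (SE 0.17, 95% interval -0.92 to -0.18), with an unadjusted p of 0.00665 and an adjusted p of 0.138 by limma. The feature was bright on every array, with median Cy3 signals of 16673 and 6692 in stimulated and 23208, 17751 and 12242 in unstimulated fibers.

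Feature 7 had the lowest difference of the 22. Its log2 ratio was -0.13 and -0.97 on the stimulated arrays of experiments 1 and 2 and of experiment 3, against 0.15, 0.21 and 0.37 on the unstimulated arrays. The groups did not overlap, but the stimulated array of experiment 3 lay far below the other. Its median Cy3 signal was 11530 and 1695 units on the stimulated arrays, against 11535, 12324 and 7436 on the unstimulated ones. The difference of group means was -0.79 (SE 0.28, 95% interval -1.39 to -0.20), with an unadjusted p of 0.0125 (0.138 after adjustment, by limma). Without the stimulated array of experiment 3 it was -0.38, and without that of experiments 1 and 2 it was -1.21. Each of these fits rests on 1 stimulated array, taken to have the spread of the remaining groups, and in the second feature 7 passed with an adjusted p of 0.0402.

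Feature 15 was higher on both stimulated arrays, at 0.31 and -0.00 (log2 ratio), against -0.14, -0.28 and -0.16 on the unstimulated arrays. The gap between the groups was small beside the distance between the 2 stimulated arrays. The difference was 0.35 (SE 0.17, 95% interval -0.03 to 0.72), with an unadjusted p of 0.0654 and an adjusted p of 0.479 by limma.

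Feature 8 had the highest difference of the 22, and its groups overlapped. Its log2 ratio was -0.02 and 0.71 on the stimulated arrays, against -0.20, -0.17 and 0.05 on the unstimulated arrays, so that the stimulated array of experiments 1 and 2 fell among the unstimulated ones. The difference was 0.45 (SE 0.26, 95% interval -0.11 to 1.01), with an unadjusted p of 0.107 and an adjusted p of 0.479 by limma. The value was 0.09 without the stimulated array of experiment 3 and 0.81 without that of experiments 1 and 2. The value just outside these 4 was that of feature 12, with an unadjusted p of 0.109.

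Experiments were also treated as blocks, since the titles number them. As a fixed replicate block the experiment left 0 features past the threshold, whether the double scan was counted with experiment 1 or 2. The difference of feature 9 was then -0.67 or -0.53 (adjusted p 0.0790 or 0.132) and that of feature 7 was -0.81 or -0.84 (adjusted p 0.0806 or 0.0943). With the replicate block as a random effect 2 features passed, feature 9 at -0.58 (adjusted p 0.0403) and feature 7 at -0.80 (adjusted p 0.0490). Whether features 7 and 9 passed thus depended on how the block was fitted, while their direction and approximate size did not.

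Headers of the scans name 2 image folders for these arrays. One held the stimulated array of experiments 1 and 2 with the unstimulated arrays of experiments 1 and 2, the other both arrays of experiment 3. Within these folders feature 9 differed by -0.54 and -0.65 on the log2 scale, nearly the same amount in each. Feature 7 differed by -0.31 and -1.34, feature 15 by 0.52 and 0.16, and feature 8 by 0.17 and 0.66, so their direction was the same in both folders and their size was not. Of 21 features with both within-folder differences, 14 had the same sign in each folder, 6 of them lower and 8 higher in stimulated fibers. The SD over features of these differences was 0.28 in the first folder and 0.54 in the second. The first rests on the mean of the unstimulated arrays of experiments 1 and 2 and the second on a single unstimulated array. The 2 SDs are therefore not directly comparable. A fixed folder block called 0 features and gave features 7 and 9 the same adjusted p, 0.124. As a random block the folder let both pass, at an adjusted p of 0.0324 for feature 7 and 0.0229 for feature 9.

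**Figure D2:**
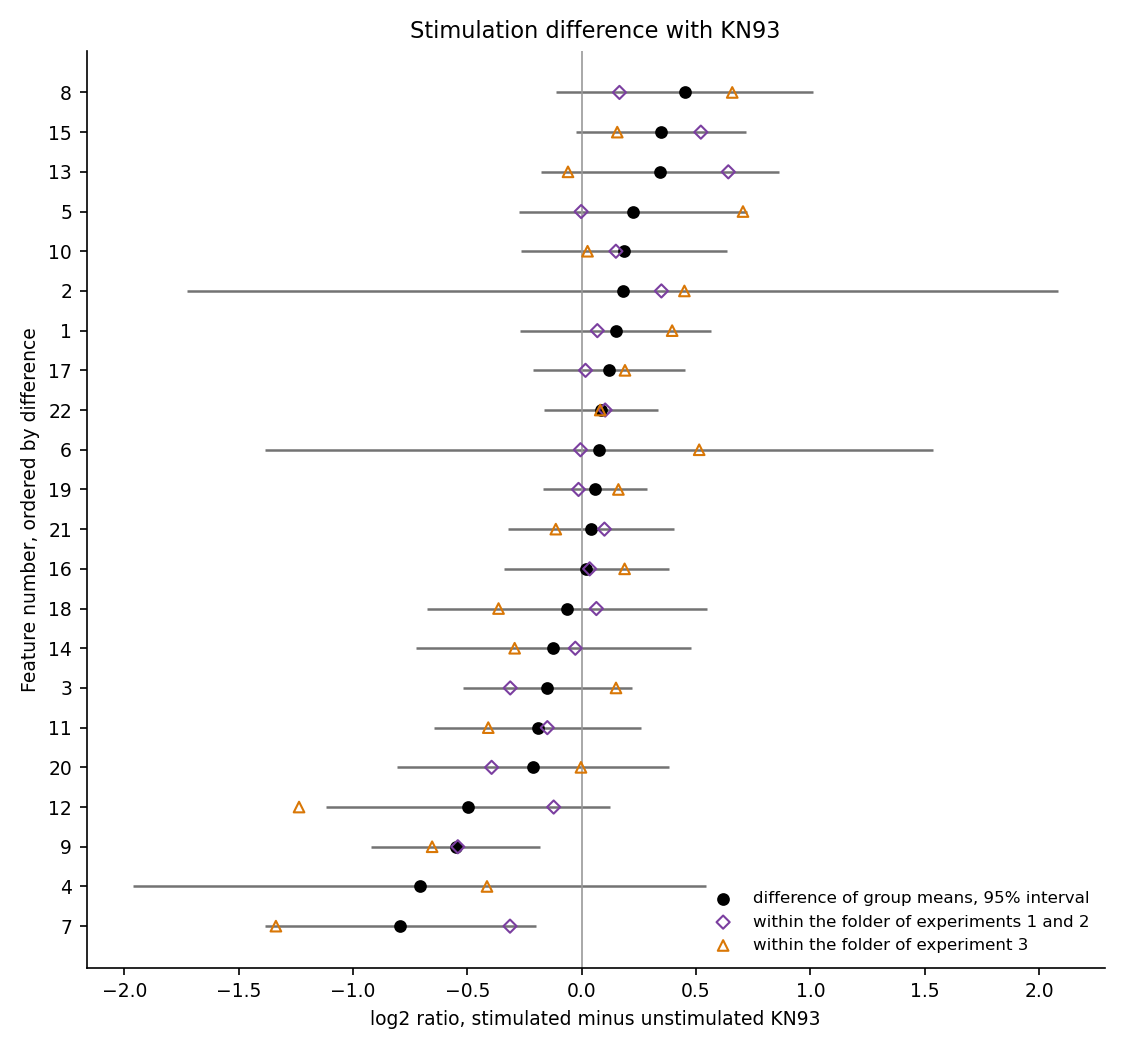
Stimulated minus unstimulated log2 ratio with KN93 (x axis) for the 22 features in order of size (y axis). Black points are differences of group means with their 95% intervals, diamonds the difference within the folder of experiments 1 and 2, and triangles that within the folder of experiment 3. The intervals of features 7 and 9 do not reach 0, and the 2 folders give -0.54 and -0.65 for feature 9 and -0.31 and -1.34 for feature 7.

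The 7 other features above background on all 5 arrays had differences nearer 0. Feature 5 had log2 ratios of 0.04 and -0.01 on the stimulated arrays, against 0.08, 0.01 and -0.72 on the unstimulated ones, a difference of 0.22 (95% interval -0.27 to 0.72). Its unstimulated array of experiment 3 stood apart from the other 4. Feature 10 had log2 ratios of -0.02 and 0.44 in stimulated fibers, against -0.27, -0.07 and 0.41 in unstimulated fibers. Feature 11 had 0.14 on the stimulated array of experiment 3 and 0.54 on the unstimulated one of that experiment, and lay between -0.13 and 0.09 on the other 3 arrays. In both features the arrays of experiment 3 were higher than the others of their group, and the 2 groups overlapped.

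Feature 14 ranged from 0.13 to 0.18 (log2 ratio) on the stimulated arrays, against 0.16 to 0.43 on the unstimulated arrays. Its difference of -0.12 (95% interval -0.72 to 0.48) was one of 3, with those of features 9 and 12, whose sign did not turn under any alternative run. Feature 16 had 0.16 and -0.23 on the stimulated arrays, against 0.13, 0.12 and -0.42 on the unstimulated arrays. Both arrays of experiment 3 were the lowest of their group, and the difference was 0.02 (95% interval -0.34 to 0.38). Feature 17 had 0.18 on the stimulated array of experiment 3, against -0.00 on the unstimulated one, and lay between -0.14 and -0.07 on the other 3 arrays. Its difference of 0.12 had an interval of -0.21 to 0.45.

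Feature 1 was saturated in part. A Cy3 signal of 65000 units or more was recorded on 12 of 12 spots of the double scan and 0 of 6 on the stimulated array of experiment 3, against 1, 0 and 0 of 6 on the unstimulated arrays. Its log2 ratios of 0.06 and -0.12 in stimulated fibers, against 0.06, -0.07 and -0.51 in unstimulated fibers, are therefore bounded by the scanner on the first of these arrays. Cy5 was saturated on 2 of 12 spots of the double scan and 1 of 6 on the stimulated array of experiment 3, against 0, 0 and 3 of 6 on the unstimulated arrays of experiments 1, 2 and 3, so the lowest ratio is limited by the scanner too. The difference, limited in the same way, was 0.15 (95% interval -0.27 to 0.57).

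Features 2, 4 and 12 were above background on all but 1 of the 5 arrays. Feature 2 had log2 ratios of 0.44 and -0.78 in stimulated fibers, against -0.02, 0.19 and -1.23 in unstimulated fibers. The 0.44 is from the double scan, where 6 of 12 spots exceeded the background, so feature 2 was not above it there. Its triplets read 0.01 and 0.86 on that array. Both arrays of experiment 3 were low, and its difference of 0.18 had an interval of -1.73 to 2.08. The median Cy5 signal of feature 2 was 682 and 8539 units on the stimulated arrays, against 1136, 533 and 12738 on the unstimulated ones, so the reference was brighter on both arrays of experiment 3. Cy3 of the same feature was 1193 and 5205 units, against 1247, 1118 and 4521, also brighter on that pair.

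Feature 4 had a log2 ratio of -1.10 on the 1 stimulated array that measured it, against -0.33, -0.17 and -0.69 on the unstimulated arrays. The difference was -0.71 (SE 0.58, 95% interval -1.96 to 0.54), and within experiment 3 it was -0.41. Its Cy5 signal was 15522 units on the stimulated array of experiment 3, against 13553 on the unstimulated one and 5742 and 1713 on those of experiments 1 and 2. Again the reference was brightest on the pair of experiment 3. In the sample channel alone the difference of feature 4 was 0.85, with the opposite sign.

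Feature 12 had log2 ratios of 0.04 and 0.03 on the stimulated arrays, against 0.07, 0.25 and 1.26 on the unstimulated arrays. The groups did not overlap, but the unstimulated array of experiment 1 lay next to the stimulated ones. Most of the difference of -0.50 (95% interval -1.12 to 0.13) came from the unstimulated array of experiment 3, and without that array it was -0.13. On the double scan 6 of 12 spots exceeded the background, so the feature was not above background on that stimulated array.

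Features 19, 20 and 21 were near background. Feature 19 had the smallest residual SD of all features, 0.08, with log2 ratios of -0.01 and 0.07 in stimulated and 0.03, -0.02 and -0.09 in unstimulated fibers. It exceeded background on 1 of 2 stimulated and 2 of 3 unstimulated arrays. Feature 20 exceeded background on 1 array of each group and differed by -0.21 (95% interval -0.81 to 0.38). Feature 21 did so on 2 of 2 stimulated and 2 of 3 unstimulated arrays and differed by 0.04 (95% interval -0.32 to 0.41).

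On none of the 5 arrays did features 3, 6, 13 and 22 exceed background. Over all 5 arrays the median Cy3 signal of feature 3 lay between 190.25 and 706.25 units beside a background of 389.25 to 924.0, that of feature 6 between 51.5 and 685 beside 137.5 to 744, and that of feature 22 between 88.5 and 422.5 beside 226.0 to 847.5. Feature 13 lay between 132 and 629.75 units beside 424.0 to 1337.25. No fold is given for these 4 features, and the separation of the groups in feature 22 concerns values below background. Feature 18 was not above background on either stimulated array and was above it on 1 of 3 unstimulated arrays. Its bound, unstimulated over the dimmest measurable stimulated level, was under 1, so no fold is given for it either.

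The 6 spots of a feature stand as 2 triplets in different parts of the array, which gives 2 readings of each difference from the same arrays. Over the 21 features measured on both stimulated arrays, the stimulation difference had the same sign in both triplets for 16. Feature 9 differed by -0.68 in the first triplet and -0.42 in the second, feature 7 by -0.62 and -0.96, feature 15 by 0.30 and 0.39 and feature 8 by 0.51 and 0.39. All 4 thus kept their direction in each triplet. Feature 5 did not, with 0.55 in the first triplet and -0.10 in the second, nor did feature 16, with -0.03 and 0.07.

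Spots disagreed most on the stimulated array of experiment 3. The SD over the spots of a feature had a median of 0.13 and 0.33 (log2 ratio) on the stimulated arrays of experiments 1 and 2 and of experiment 3, against 0.09, 0.11 and 0.16 on the unstimulated arrays. The log2 Cy3 signals of the first and second triplets correlated across features at 0.995 and 0.85 on the stimulated arrays, against 0.996, 0.981 and 0.994 on the unstimulated ones, features not being independent replicates. On the stimulated array of experiment 3 the triplets of feature 7 read -0.59 and -1.34, both below every unstimulated triplet. Those of feature 15 read -0.20 and 0.19 there, and the first of them lies among the unstimulated values.

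**Figure D3:**
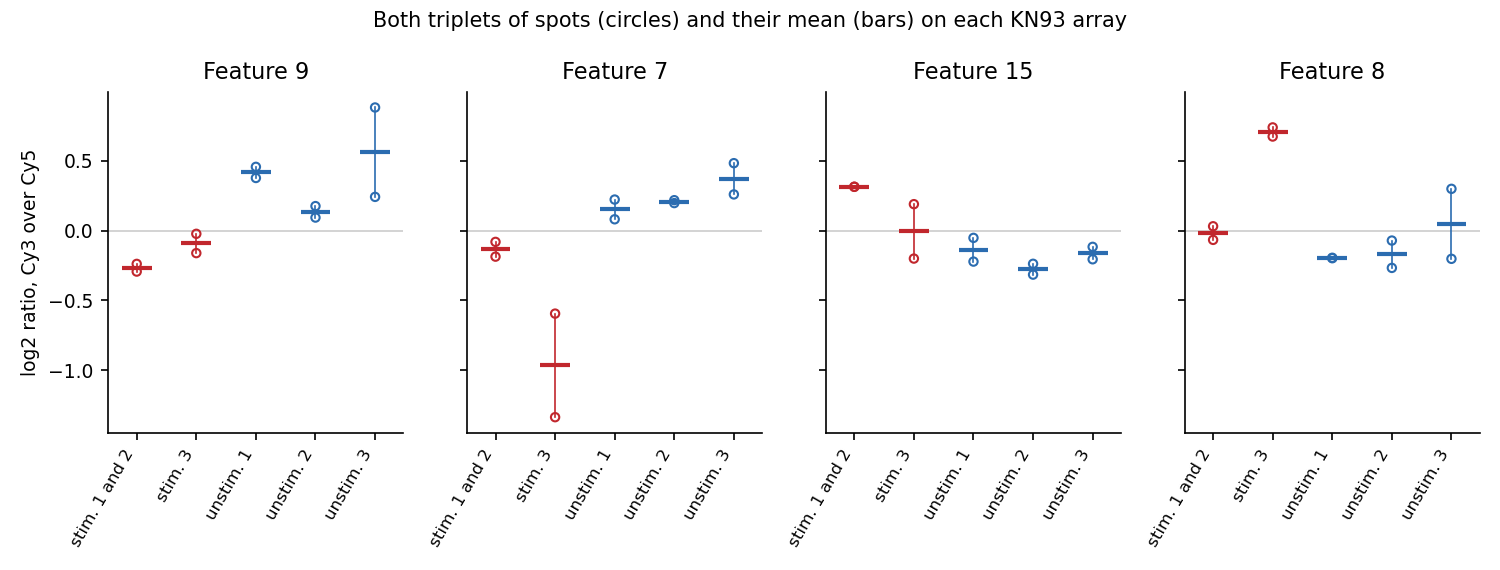
Log2 ratio (y axis) of the first and second triplet of spots (circles, joined by a line) and of all spots (bar) for features 9, 7, 15 and 8 on the 2 stimulated (red) and 3 unstimulated (blue) arrays with KN93. The triplets of feature 7 on the stimulated array of experiment 3 lie at -0.59 and -1.34, and the wide pair of feature 9 is on the unstimulated array of experiment 3.

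A ratio can differ through the sample channel, Cy3, or the reference channel, Cy5. With each channel centred on its array's median feature, Cy3 of feature 7 differed by -1.12 (log2) and Cy5 by -0.02 between group means. The centred Cy3 signal of feature 7 was 3.08 and 0.26 on the stimulated arrays, against 2.67, 3.45 and 2.26 on the unstimulated arrays. The Cy3 difference thus rests on the stimulated array of experiment 3, and without that array it was 0.29. Within the folder of the double scan Cy3 of feature 7 differed by 0.02 and Cy5 by 0.36, and within that of experiment 3 by -2.00 and 0.28. For feature 9 the sample channel differed by -0.98 and the reference by -0.65. Without the stimulated array of experiment 3 these were -0.28 and 0.27, the reference with its sign turned. Within the folder of the double scan Cy3 of feature 9 differed by -0.50 and Cy5 by -0.07, and within that of experiment 3 by -1.26 and -0.88. For features 15 and 8 the reference differed more than the sample, by -0.71 against -0.06 and by -0.95 against -0.54. Under this centring the higher ratio of both features in stimulated fibers went with a lower mean Cy5 signal, and neither had a higher mean Cy3 signal. The 2 stimulated arrays parted in Cy3 of feature 15, at 3.95 and 3.28, against 3.75, 3.66 and 3.59 on the unstimulated arrays. Its Cy3 differed by 0.24 within the folder of the double scan and by -0.32 within that of experiment 3.

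Over the 22 features the SD of the Cy5 difference was 0.51 and that of the Cy3 difference 0.49. The 2 channels differed in the same direction for 21 features, and Cy5 differed more than Cy3 for 13. Both channels of a spot share its position and the amount of probe printed, and feature 4 rests on 1 stimulated array here. Quantile normalization of Cy3 alone gave a difference of -0.61 (adjusted p 0.496) for feature 9, -0.70 (adjusted p 0.629) for feature 7, 0.19 (adjusted p 0.818) for feature 15 and -0.12 (adjusted p 0.863) for feature 8. Relative to the ratio, the direction turned for feature 8 and not for features 9, 7 and 15. The mean Cy3 signal of feature 15 was thus higher in stimulated fibers under quantile normalization and not under centring.

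**Figure D4:**
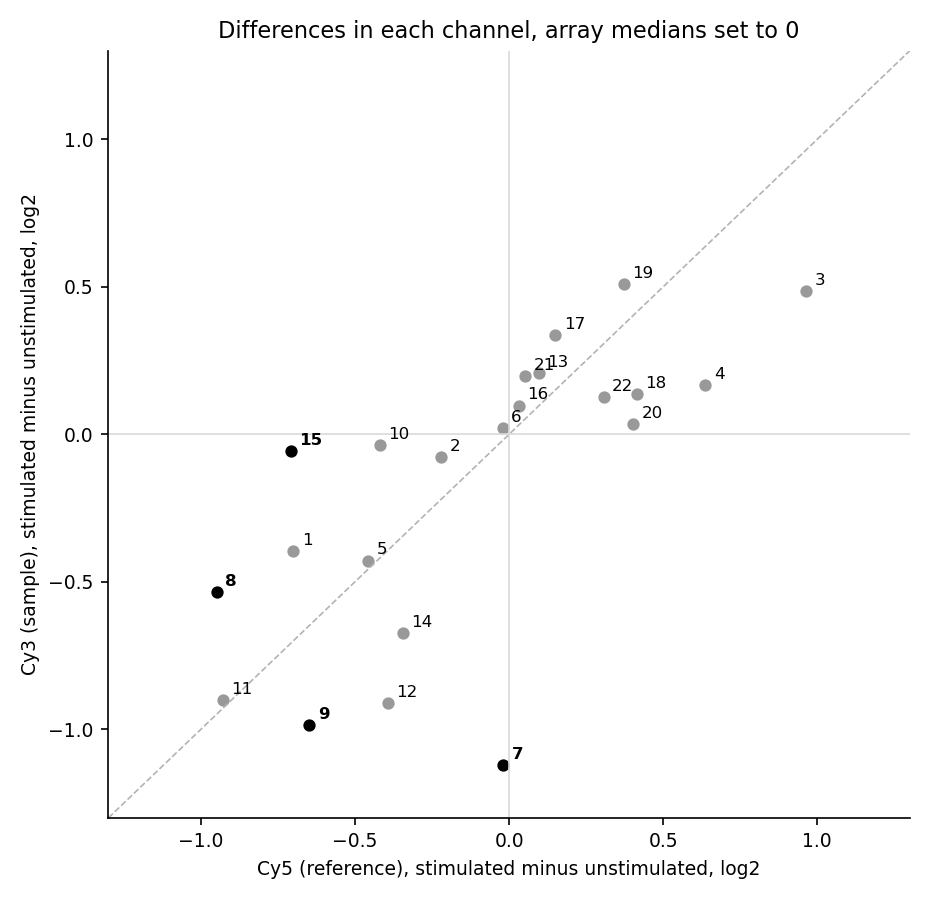
Stimulated minus unstimulated log2 signal with KN93 in Cy5, the reference (x axis), and in Cy3, the sample (y axis), each centred on the array's median feature, with 1 numbered point per feature and the 4 features with the smallest p in black. The dashed line marks equal differences. Feature 7 lies at -0.02 in Cy5 and -1.12 in Cy3, the second resting on the stimulated array of experiment 3, and features 15 and 8 lie above the line.

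Log2 ratios of the 2 stimulated arrays correlated across 21 features at -0.03. The stimulated array of experiments 1 and 2 correlated with the unstimulated arrays of experiments 1, 2 and 3 at -0.45, 0.20 and -0.23, and that of experiment 3 at -0.40, -0.29 and 0.43. The 2 values under -0.3 are both with the unstimulated array of experiment 1. Among the unstimulated arrays, that of experiment 1 correlated at 0.01 with experiment 2 and at -0.06 with experiment 3. Those of experiments 2 and 3 correlated at 0.34. The cause of the negative values was not tested. The labels state the dyes, so Cy3 over Cy5 was kept as the direction. Cy3 signals correlated between all pairs of these arrays at 0.88 to 0.98.

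The next question was whether stimulation acted differently with KN93 than with KN92, its inactive control compound, or with KN62, the other inhibitor. By the labels the named stimulation pattern and the day of culture were the same, while pulse settings and doses of the 3 compounds were not stated. No image folder held arrays of more than 1 compound, so compound and folder cannot be told apart. In KN92 experiment 2 and KN62 experiments 1 and 3 the stimulated and unstimulated arrays also lay in different folders. The difference of stimulation effects was tested for 22 features in each of 2 pairs of compounds, 44 tests in all. Limma called 0 features (0%) in KN93 minus KN92 and 0 (0%) in KN93 minus KN62, with 1 unadjusted p under 0.05 in each, and the lowest p adjusted over both pairs was 0.873.

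In the scanner values feature 7 had the largest difference of effects in both pairs. Its stimulation effect was -0.79 (SE 0.28) with KN93, 0.05 (SE 0.25) with KN92 and 0.06 (SE 0.25) with KN62. The effect with KN93 differed from that with KN92 by -0.84 (95% interval -1.64 to -0.05, adjusted p 0.873) and from that with KN62 by -0.85 (95% interval -1.65 to -0.06, adjusted p 0.817). With KN92 its log2 ratio was 0.32, 0.11 and 0.18 on the stimulated arrays of experiments 1, 2 and 3, against 0.33, 0.17 and -0.04 on the unstimulated arrays. With KN62 it was 0.37, -0.52 and 0.26, against 0.21, -0.37 and 0.09. Within an experiment, stimulated and unstimulated arrays differed by at most 0.21 with KN92 and 0.17 with KN62. Without the stimulated KN93 array of experiment 3 the differences were -0.42 (KN93 minus KN92) and -0.44 (KN93 minus KN62), and without that of experiments 1 and 2 they were -1.26 and -1.27. From the authors' deposited table, with the grid of the double scan moved, an alternative chosen after seeing the data, feature 7 differed by -0.26 from KN92 and by 0.33 from KN62, the second with the sign turned.

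Feature 9 was lower on every stimulated than on every unstimulated array with KN93 and with KN92. With KN92 its log2 ratio was -0.37, -0.12 and -0.29 on the stimulated arrays, against -0.06, 0.17 and 0.26 on the unstimulated arrays, an effect of -0.38 (SE 0.15). Its effect with KN93 differed from this by -0.17 (95% interval -0.66 to 0.33), and from the effect of -0.15 (SE 0.15) with KN62 by -0.40 (95% interval -0.90 to 0.10). Neither interval shows that the effects are equal.

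The differences of feature 15 within experiments had opposite signs with KN93 and KN92. It was higher in stimulated fibers by 0.52 and 0.16 within the KN93 experiments, and its within-experiment differences with KN92 were -0.09, -0.07 and -0.10. The difference of effects was 0.43 (95% interval -0.06 to 0.93, adjusted p 0.904) between KN93 and KN92 and 0.24 (95% interval -0.25 to 0.74) between KN93 and KN62.

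By the titles, feature 8 was higher in stimulated fibers within every experiment with all 3 compounds. Its effects were 0.45 (SE 0.26) for KN93, 0.52 (SE 0.23) for KN92 and 0.14 (SE 0.23) for KN62. Experiment 3 with KN92 and experiments 2 and 3 with KN62 include arrays in doubt, described below. The difference between KN93 and KN92 was -0.07, with an interval of -0.82 to 0.68 that spans changes of either sign. Between KN93 and KN62 it was 0.31 (95% interval -0.44 to 1.06). Feature 12 had an effect of -0.35 (SE 0.26) with KN92 and no overlap of the groups, beside -0.50 (SE 0.29) with KN93.

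Over the 22 features the stimulation effect had an SD of 0.34 with KN93, 0.23 with KN92 and 0.18 with KN62, the first of them with 2 stimulated arrays where the others had 3. Effects with KN93 and KN92, which share no array, correlated across features at 0.51, and those with KN93 and KN62 at 0.14. In each pair the 2 effects had the same sign for 12 of the 22 features. These values include features 3, 6, 13 and 22, which exceeded background on none of the KN93 arrays. The 95% interval of the difference of effects had a median half-width of 0.64 in each pair. It lay between -1 and 1 for 16 features in KN93 minus KN92 and for 13 in KN93 minus KN62. The intervals of the others, feature 7 among them in both pairs, include a 2-fold difference between compounds. For the unstimulated KN92 array of experiment 3 and the stimulated KN62 array of experiment 2 the labels disagree about the stimulation state. The deposited ratios of the KN62 arrays of experiment 3 follow another scan or none. The values of all features above keep these arrays under their titles, so the signs within those experiments carry the same doubt. Without these 4 arrays feature 7 differed by -0.75 from KN92 (adjusted p 0.899) and by -1.25 from KN62 (adjusted p 0.290).

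**Figure D5:**
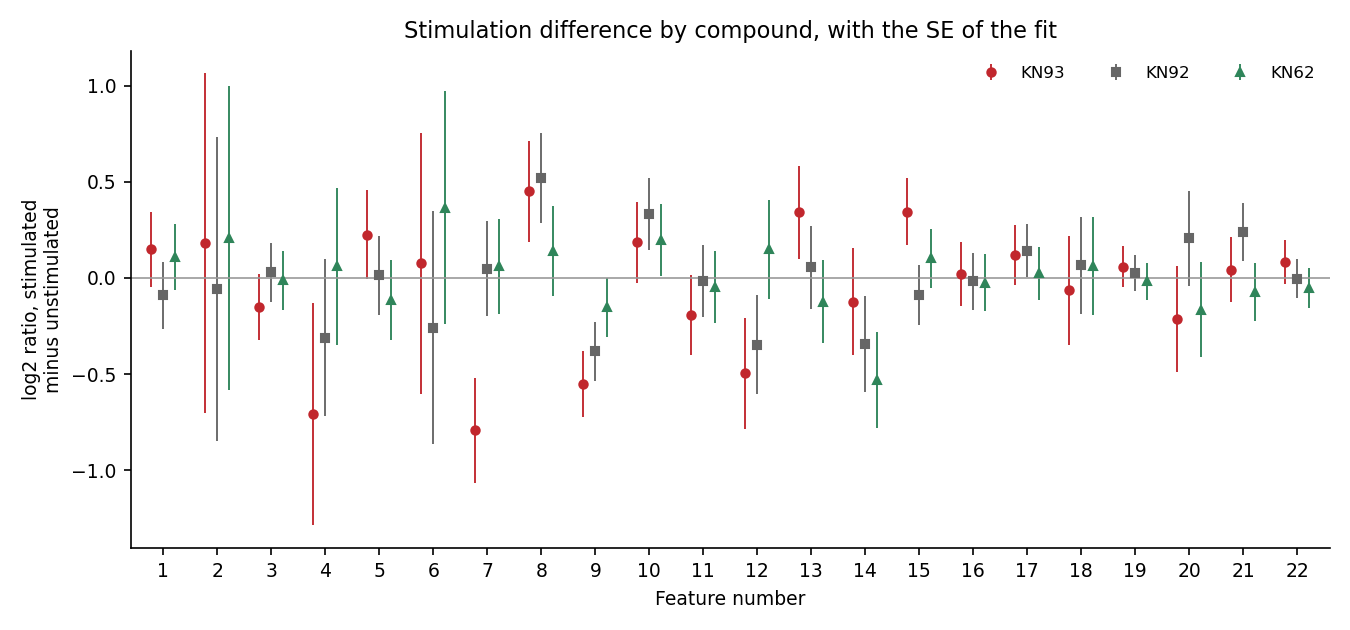
Stimulated minus unstimulated log2 ratio (y axis) of the 22 features (x axis) with KN93 (red circles), KN92 (grey squares) and KN62 (green triangles), with the SE of the fit as bars. Feature 7 is at -0.79 with KN93, beside 0.05 with KN92 and 0.06 with KN62, and features 8 and 9 are on the same side of 0 with all 3 compounds.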

How the data were processed

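The deposited scanner files hold spot intensity, with a signal and a local background median per channel, from quantification software version 5.5, per the file headers. The deposited table holds a linear ratio, Cy3 over Cy5, that the authors computed for 132 spots, set by an unstated factor per array, with column medians of 0.767 to 1.55. Aligning table rows to spots placed 40 of 44 triplets by their values and 4 (feature 3, 1 triplet; feature 13, both; feature 22, 1) by the layout alone.

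The 2 scans of stimulated experiments 1 and 2 share all 144 spot coordinates and differ by an SD of 0.0821 in log2 Cy3, against 0.477 for the next closest pair. Moving their grid by 1 column raised the correlation with other arrays to 0.953, against 0.149 as deposited. They were averaged. Their log2 ratios differed by an SD of 0.135 over features.

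Signals were background-corrected with normexp (offset 50) and normalized by loess within each array, weighting spots outside the features at 0, in limma 3.58.1 (R 4.3.3). Loess is fitted to these same features and can absorb part of a change. A feature is the mean of its spots, of which at least 2 must have a value. One model with 6 group means was fitted to 17 arrays with lmFit and eBayes, with Benjamini-Hochberg adjustment over 22 features. The script was tested on simulated data. All features are described, and the 4 with the smallest p in the KN93 comparison get full statistics. Marker lists could not be matched to any feature, since the gene column was empty. Members, lists and tests were chosen with earlier results of these data known.

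Pairing by experiment comes from the titles. Deviations from group means correlated between same-numbered arrays at 0.35, 0.63 and 0.56 with KN93 (experiments 1, 2 and 3), at -0.22, -0.10 and -0.02 with KN92 and at 0.87, 0.78 and 0.62 with KN62. Unlike-numbered KN62 arrays of experiments 2 and 3 also correlated. Stimulated experiment 3 gave 0.72 with unstimulated experiment 2, and stimulated experiment 2 gave 0.51 with unstimulated experiment 3. Unlike-numbered KN62 pairs with an array of experiment 1 lay between -0.92 and -0.70. With 2 stimulated KN93 arrays these deviations mirror each other.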

Additional observations from a re-analysis of the deposited data

Results flagged for a closer look

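Positions of the array outside the 22 features also gave signal. Cy3 exceeded the local background on 9 of 9 such spots (100%) of the stimulated array of experiments 1 and 2 (1 of its scans) and on 11 of 12 (91.7%) of that of experiment 3. On the unstimulated arrays it did so on 10 of 12 (83.3%), 8 of 12 (66.7%) and 8 of 12 (66.7%). Cy5, the reference, exceeded its background on 8 of 9 and 12 of 12 such spots of the stimulated arrays. On the unstimulated arrays of experiments 1, 2 and 3 Cy5 did so on 8, 8 and 9 of 12. In both channels the share was higher on both stimulated arrays than on any unstimulated array. The median Cy3 signal of these spots was 6907 units beside a background of 6597 on the first stimulated array, and 1968 beside 1533 on the second. On the unstimulated arrays it was 2005 beside 1540, 4590 beside 4910 and 1307 beside 972. With 2 arrays against 3 the difference was not tested.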

How the results depend on the processing

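The count of features past the threshold in the KN93 comparison was 2 with the replicate block as a random effect (correlation 0.288) and 2 with a random block for the image folder (correlation 0.501), ranged from 0 to 1 with 1 array left out, and was 0 under the other alternatives run; the causes were not tested. Both counts of differences between compounds were 0 under every alternative run, the fixed and random replicate block included. Feature 8 in KN93 minus KN92 turned to 0.0929 under plain background subtraction, 0.00953 in the sample channel alone, 0.0418 without the arrays in doubt and 0.104 with the deposited ratios on a moved grid, and ranged from -0.434 to 0.291 with 1 array left out. In KN93 minus KN62 it ranged from -0.0514 to 0.673 so. Its KN93 difference was -0.117 in the sample channel alone. The deposited ratios of the double scan follow the unmoved grid, where spots stand in the wrong feature. With them the KN93 differences of features 7 and 15 were 0.808 and -0.232, those in KN93 minus KN92 0.963 and -0.341, and those in KN93 minus KN62 1.55 and -0.549, with 0.0371 for feature 9. With the grid moved, an alternative chosen after seeing the data, features 7, 9, 15 and 8 differed by -0.41, -0.62, 0.66 and 0.51 with KN93, with the sign of the scanner values but a smaller difference for feature 7 and a larger one for feature 15, and feature 7 in KN93 minus KN62 turned to 0.330. The Cy5 signal of feature 2 was bright on 4 arrays, both of KN93 experiment 3 and both of KN62 experiment 1. Without them feature 7 was at -0.31, feature 8 at 0.17 and feature 9 at -0.54. This run leaves 1 stimulated KN93 array and repeats the differences within the folder of experiments 1 and 2. Median centring in place of loess gave -1.10 for feature 7, -0.34 for feature 9 and 0.65 for feature 15. Signal over background limits features 3, 6, 13, 18 and 22, and saturation limits feature 1.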
